A study of Mus musculus with 13 samples.

Results

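10 genes of the Hedgehog and bone morphogenetic protein (BMP) pathways are described here in mouse small intestinal epithelium that has lost Eed or Ezh2. They are the Hedgehog ligands Shh and Ihh, their receptor Ptch1, the BMP ligands Bmp2, Bmp4, Bmp7 and Bmp8b, and the secreted BMP antagonists Nog, Grem1 and Chrd. They were picked out of the tables by gene symbol, as named members of these pathways and with earlier results of these data known, and all 10 were among the 21420 Ensembl gene identifiers shared by both deposited count tables. EED and EZH2 are subunits of Polycomb repressive complex 2, the enzyme that trimethylates histone H3 at lysine 27, a mark of silenced developmental genes.

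The 13 RNA-seq libraries fall into 5 groups. Crypts, which are glands at the base of the villi where stem and Paneth cells sit, came from Eed KO (Eed-/-, n = 3), Ezh2 KO (Ezh2-/-, n = 3) and WT mice (n = 3). All crypt mice had a mixed C57BL/6-FVB background, received beta-naphthoflavone for 6 weeks and were 12 weeks old at collection. Organoids, epithelial cultures with no stroma, were grown from AhCre;Eed f/f crypts (Eed KO, C57BL/6-FVB, n = 2) and from AhCre crypts (WT, FVB, n = 2), and both received beta-naphthoflavone for 10 days. Beta-naphthoflavone induces the AhCre transgene, which recombines floxed alleles in the epithelium, so WT samples were exposed to the compound too. Libraries are named by group, sequencing run (385 or 440) and number. The WT organoids and, by its column header, WT crypt 440_1 also carry the recombinase. Headers of the knockout crypts of run 440 name AhCre with floxed Eed or Ezh2. Those of the run 385 crypts, WT and Eed KO, name no transgene. All organoids were in run 385 and all Ezh2 KO crypts in run 440, while Eed KO and WT crypts each had libraries 385_1, 385_2 and 440_1. A fit of run 440 alone therefore has no replicate of Eed KO or WT crypts. Any SE or p-value given for it rests on the spread of the Ezh2 KO crypts. Whether each library stands for its own mouse or culture is not stated in the labels, and the p-values therefore cover library-to-library spread, part of which may be technical.

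In the intestine, Hedgehog ligands are made by the epithelium and act on the mesenchyme beneath it, which carries PTCH1 and answers through GLI transcription factors. Binding of a ligand to PTCH1 releases Smoothened, and Ptch1 is itself a target of the pathway. BMP ligands come from mesenchyme and from differentiated epithelium, signal through SMAD1, SMAD5, SMAD9 and SMAD4, induce ID genes, and restrain stem cell self-renewal. Around the crypt base, mesenchymal antagonists such as gremlin 1, noggin and chordin-like proteins bind BMP ligands and keep that signal low.

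Complex 2 is known to act at promoters rich in CpG pairs, so the start regions of the genes are given for their sequence before their levels. RefSeq entries (GRCm38.p6) were matched for 6 of the 10 genes (Ihh, Ptch1, Bmp4, Bmp8b, Grem1 and Chrd). The 250 bases upstream of the start are printed below for Ihh, Bmp8b and Chrd, the matched genes whose level differed in at least 1 comparison, and for Bmp4, which differed in none. Letters run 5′ to 3′ on the strand of the gene, and capitals mark CpG pairs.
Ihh, chr1:74951673-74951922, minus strand: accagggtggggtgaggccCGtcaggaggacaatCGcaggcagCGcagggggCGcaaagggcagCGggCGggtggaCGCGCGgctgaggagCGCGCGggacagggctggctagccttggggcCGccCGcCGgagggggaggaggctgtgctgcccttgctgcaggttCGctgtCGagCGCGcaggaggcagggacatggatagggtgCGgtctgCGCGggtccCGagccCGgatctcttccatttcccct
Bmp8b, chr4:123104911-123105160, plus strand: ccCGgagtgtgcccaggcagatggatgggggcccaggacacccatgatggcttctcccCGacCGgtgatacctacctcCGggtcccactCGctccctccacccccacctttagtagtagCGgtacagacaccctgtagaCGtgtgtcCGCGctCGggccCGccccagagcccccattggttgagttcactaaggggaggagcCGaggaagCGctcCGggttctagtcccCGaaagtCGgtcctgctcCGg
Chrd, chr16:20732877-20733126, plus strand: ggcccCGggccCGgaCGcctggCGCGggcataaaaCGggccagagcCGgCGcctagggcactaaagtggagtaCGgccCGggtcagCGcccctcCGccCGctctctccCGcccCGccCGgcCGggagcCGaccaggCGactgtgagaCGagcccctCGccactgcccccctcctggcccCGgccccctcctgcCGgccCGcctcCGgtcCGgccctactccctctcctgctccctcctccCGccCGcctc
Bmp4, chr14:46390670-46390919, minus strand: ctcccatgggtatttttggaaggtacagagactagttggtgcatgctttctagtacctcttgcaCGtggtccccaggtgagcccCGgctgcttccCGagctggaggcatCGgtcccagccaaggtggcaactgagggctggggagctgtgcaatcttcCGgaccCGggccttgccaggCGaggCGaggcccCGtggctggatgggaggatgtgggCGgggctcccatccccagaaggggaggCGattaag
The Ihh stretch holds 24 CpG pairs (observed over expected ratio 0.783), that of Bmp8b 17 (0.645), that of Chrd 28 (0.790) and that of Bmp4 11 (0.451). Ptch1 holds 41 (1.08) and Grem1 24 (0.797) in the same window. The median over 32851 RefSeq promoters was 6 pairs and a ratio of 0.373, and 34.0% reached 0.6, as 5 of the 6 genes did. A TATA box (TATAAA) and the GLI site GACCACCCA, searched on both strands, had no match in any of the 6, against 12.4% and 0.225% of all promoters. The BMP response element GGCGCC matched once each in Ptch1, Grem1 and Chrd and is present in 9.59% of all promoters. The short Smad-binding letters GTCT matched in all 6 and in 82.9% of all promoters.

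Depth ran from 11421666 to 18300644 counts per library. Mitochondrial genes held 16.5%, 18% and 3.71% of counts in Eed KO crypts 385_1, 385_2 and 440_1. In WT crypts of the same numbers they held 12.4%, 14.5% and 8.65%. The part of this in the differences between the runs was not tested. Eed levels were 15.9 to 25.0 CPM (counts scaled by library size) in Eed KO crypts, against 50.0 to 60.3 CPM in WT crypts, and 19.2 to 30.5 CPM in Eed KO organoids, against 62.4 to 73.4 CPM in WT organoids. Ezh2 levels were 17.7 to 21.8 CPM in Ezh2 KO crypts, against 72.2 to 95.2 CPM in WT crypts. The exons deleted are not given in the sources used here. By the level of the X-linked Xist and the Y-linked Ddx3y, the libraries of run 385 were of 1 sex in Eed KO crypts and WT organoids (Xist high) and of the other in WT crypts and Eed KO organoids (Ddx3y high), so sex and genotype cannot be told apart there. The Eed KO and WT crypts of run 440 both had Xist and no Ddx3y. Epithelial markers summed to between 4694 and 8851 CPM in every library. The summed level of 17 mesenchyme, muscle and endothelium markers was 177 to 369 CPM in Eed KO crypts, 176 to 480 CPM in Ezh2 KO crypts and 73.6, 214 and 889.5 CPM in WT crypts 385_1, 385_2 and 440_1. It was 11.2 to 14.8 CPM in Eed KO organoids, with 7 of the 17 at 0, and 5.94 to 11.6 CPM in WT organoids, with 9 or 10 at 0. Col3a1, Lum, Cdh5 and Kdr were at 0 in all 4 organoid libraries. In such bulk samples, fewer cells of a type and less RNA per cell cannot be told apart.

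Counting members over the tests, 2 of the 9 genes tested in crypts were called between Eed KO and WT, both higher (Shh and Ihh), where 24.0% of all 14406 genes tested were called, 13.4% higher and 10.6% lower. In organoids 2 of 7 genes tested were called, both higher in Eed KO (Shh and Bmp8b), where 18.2% of all genes were called. Shh was the 1 gene called in both. A call means an adjusted p-value below 0.05 in edgeR's quasi-likelihood test over all genes. The median log2 fold change of the tested members was 0.23 in crypts and 0.15 in organoids, and that of all genes was -0.04 and -0.0047. Nog was too low to be tested in any comparison, and Grem1 and Chrd were too low to be tested between the organoid groups.

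**Figure D1:**
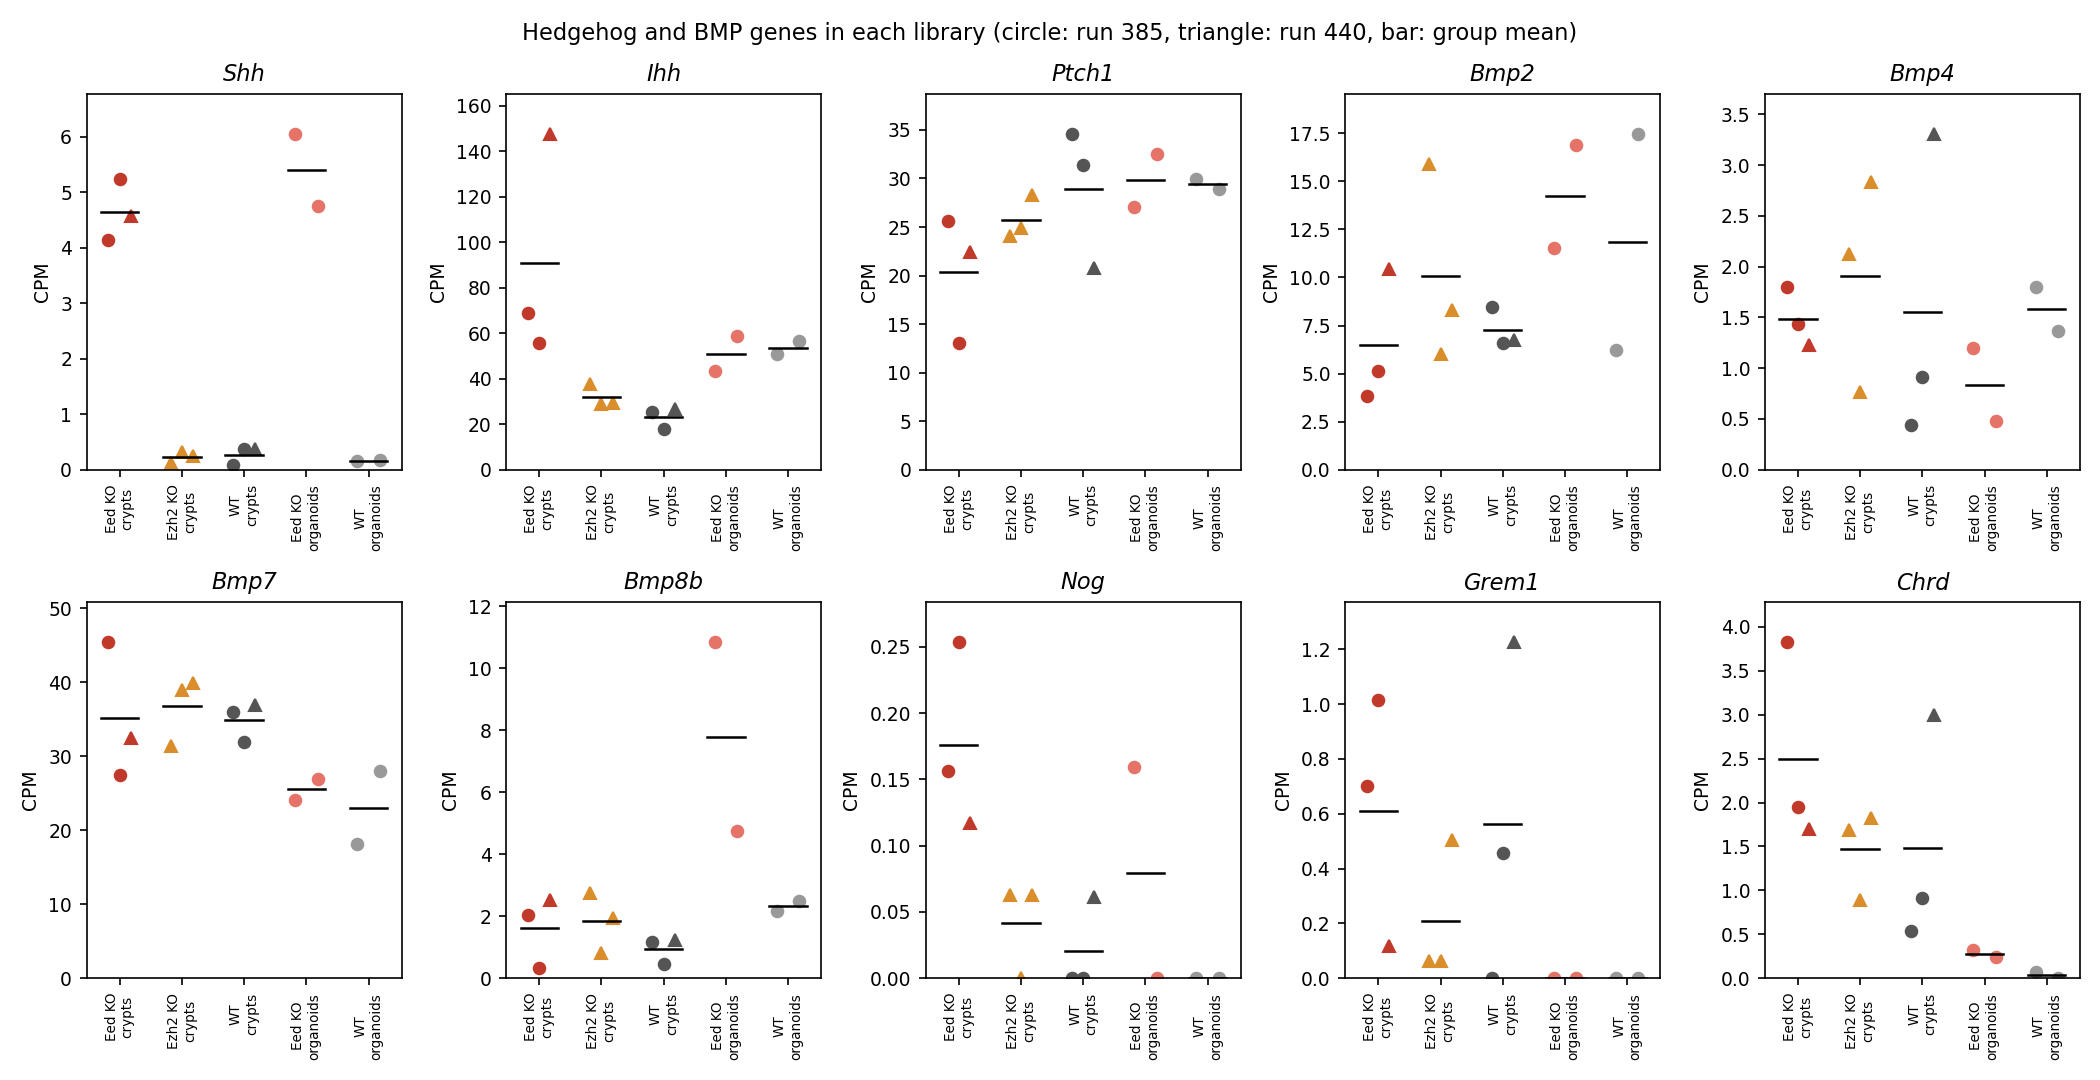
CPM of each of the 10 genes (y axes, each with its own scale) in every library, by group; points are libraries (circles run 385, triangles run 440) and bars are group means. Shh is near 0 in Ezh2 KO crypts, WT crypts and WT organoids, and Grem1 and Chrd are at or near 0 in all organoids.

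Per kilobase of exon, which allows genes to be set side by side, Ihh and Bmp7 had the highest mean levels in every group. In Eed KO crypts Ihh averaged 29.8 ± 16.3 CPM per kb and Bmp7 8.74 ± 2.30 (SD, n = 3), against 7.64 ± 1.51 and 8.69 ± 0.67 in WT crypts (SD, n = 3), where the order of these genes was reversed but within their spread. Bmp2 and Ptch1 followed in WT crypts with 2.04 ± 0.29 and 2.04 ± 0.51 CPM per kb, and Bmp4 (0.692 ± 0.683), Bmp8b (0.244 ± 0.109), Chrd (0.237 ± 0.212), Grem1 (0.135 ± 0.149) and Shh (0.0963 ± 0.0564) stood below them. Neighbours among those last genes did not differ beyond their spread. In Eed KO organoids Shh reached 1.90 ± 0.33 CPM per kb, close to Ptch1 at 2.10 ± 0.27 and Bmp8b at 2.01 ± 1.11 (SD, n = 2), while in WT organoids it stood at 0.0565 ± 0.0052 CPM per kb.

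Shh, the ligand that patterns the early gut tube and is scarce in adult small intestine, had the largest log2 fold change among the members tested between Eed KO and WT, in crypts and in organoids. It lies on chromosome 5 at 28456815 to 28467101 (GRCm38). Its level in Eed KO crypts was 4.14, 5.24 and 4.58 CPM in libraries 385_1, 385_2 and 440_1 (53, 62 and 78 reads), in Ezh2 KO crypts 0.125, 0.317 and 0.252 CPM (2, 5 and 4 reads), and in WT crypts 0.0889, 0.366 and 0.367 CPM (1, 4 and 6 reads). Every Eed KO library stood far above every other crypt library. Eed KO exceeded WT crypts by 4.03 ± 0.50 on the log2 scale (SE, adjusted p = 0.000803). The difference was 4.28 ± 0.59 within run 385 and 3.74 within run 440, where neither group had a replicate. Eed KO exceeded Ezh2 KO crypts by 4.41 ± 0.56 (adjusted p = 0.00152), and by 5.29 with the library number as a block, where the call was lost. With that block only Ezh2 KO 440_1 is set against other crypts, so the lost call cannot show that a difference is absent. Without the block, 2 of 9 members were called between Eed KO and Ezh2 KO crypts, both higher in Eed KO (Shh and Ihh), against 20.0% of all genes.

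The same gene rose in organoids. Shh had 6.06 and 4.75 CPM in Eed KO organoids (76 and 59 reads), against 0.150 and 0.171 CPM in WT organoids (2 reads each). The groups did not overlap, and the log2 fold change was 4.99 ± 0.47 (adjusted p = 0.000769). The change in organoids exceeded that in crypts by 0.98 ± 0.79 on the log2 scale, which did not pass the test (adjusted p = 0.620). The 17 mesenchyme, muscle and endothelium markers summed to 11.2 to 14.8 CPM in Eed KO organoids, against 177 to 369 CPM in Eed KO crypts. Shh was as high in Eed KO organoids as in Eed KO crypts. Exons of Shh share 361 bases with Gm26894 and 446 bases with 9530036O11Rik, both on the opposite strand, and no source used here states whether counting used strand. Gm26894 stood at 0.822 to 1.17 CPM in Eed KO crypts, against at most 0.0889 CPM in WT crypts, and at 0.885 to 1.27 CPM in Eed KO organoids, against at most 0.0857 CPM in WT organoids. It was called higher in both (adjusted p = 0.00322 and 0.0150), and whether its reads or those of Shh carry this was not tested.

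Ihh, the main Hedgehog ligand of differentiated adult gut epithelium, was higher in Eed KO crypts. It lies on chromosome 1 at 74945319 to 74951651. Its level was 68.7, 55.8 and 148 CPM in Eed KO crypts 385_1, 385_2 and 440_1, 37.8, 29.0 and 29.3 CPM in Ezh2 KO crypts, and 25.2, 18 and 26.6 CPM in WT crypts. The Eed KO libraries stood above all others, and library 440_1 was the highest of its group. The log2 fold change between Eed KO and WT crypts was 1.85 ± 0.24 (adjusted p = 0.00109), with 1.5 ± 0.23 in run 385 alone and 2.60 in run 440 alone. Against Ezh2 KO crypts it was 1.94 ± 0.27 (adjusted p = 0.00216), a call lost with the library number as a block (1.70, resting on Ezh2 KO 440_1 alone). The summed level of 9 enterocyte markers was 472, 441 and 3628 CPM in Eed KO crypts 385_1, 385_2 and 440_1, against 1771, 901 and 2401 CPM in WT crypts. Ezh2 KO crypts 440_1, 440_2 and 440_3, all lower in Ihh than any Eed KO crypt, had 6648, 3311 and 5095 CPM. The Eed KO library highest in Ihh was also the highest of its group in these markers. The other 2 Eed KO libraries were below all WT crypts in the markers and above all WT crypts in Ihh. The part of these cells in the result was not tested.

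In organoids Ihh had 43.5 and 58.6 CPM in Eed KO organoids, against 50.7 and 56.4 CPM in WT organoids, and the groups overlapped (log2 fold change -0.07 ± 0.18, adjusted p = 0.840). The Eed effect in organoids minus that in crypts was -1.92 ± 0.35 on the log2 scale (adjusted p = 0.0152). Ihh was the 1 of 9 members called in this comparison, against 4.12% of all genes. With the library number as a block, the difference was -1.93 and its call was lost (adjusted p = 0.0885). It was lost as well without Eed KO organoid 385_1 (adjusted p = 0.0753), WT organoid 385_1 (0.0572) or WT organoid 385_2 (0.0698). WT organoids already held more Ihh than WT crypts, by 1.47 ± 0.26 (adjusted p = 0.00163), and their enterocyte markers summed to 6829 and 9904 CPM.

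Ptch1, the receptor and a readout of Hedgehog signalling in responding cells, did not pass the test in any comparison. Its level was 25.6, 13 and 22.4 CPM in Eed KO crypts, 24.1, 24.9 and 28.3 CPM in Ezh2 KO crypts and 34.6, 31.4 and 20.8 CPM in WT crypts. The groups overlapped, with a log2 difference between Eed KO and WT of -0.47 ± 0.27 (adjusted p = 0.256) that was 0.24 ± 0.29 in run 440 alone. Organoids held 27.1 and 32.5 CPM as Eed KO and 30.0 and 29.0 CPM as WT (log2 difference 0.02 ± 0.15, adjusted p = 0.963). Levels of Ptch1 in organoids, where summed mesenchyme markers were below those of every crypt library, were within the range of WT crypts.

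**Figure D2:**
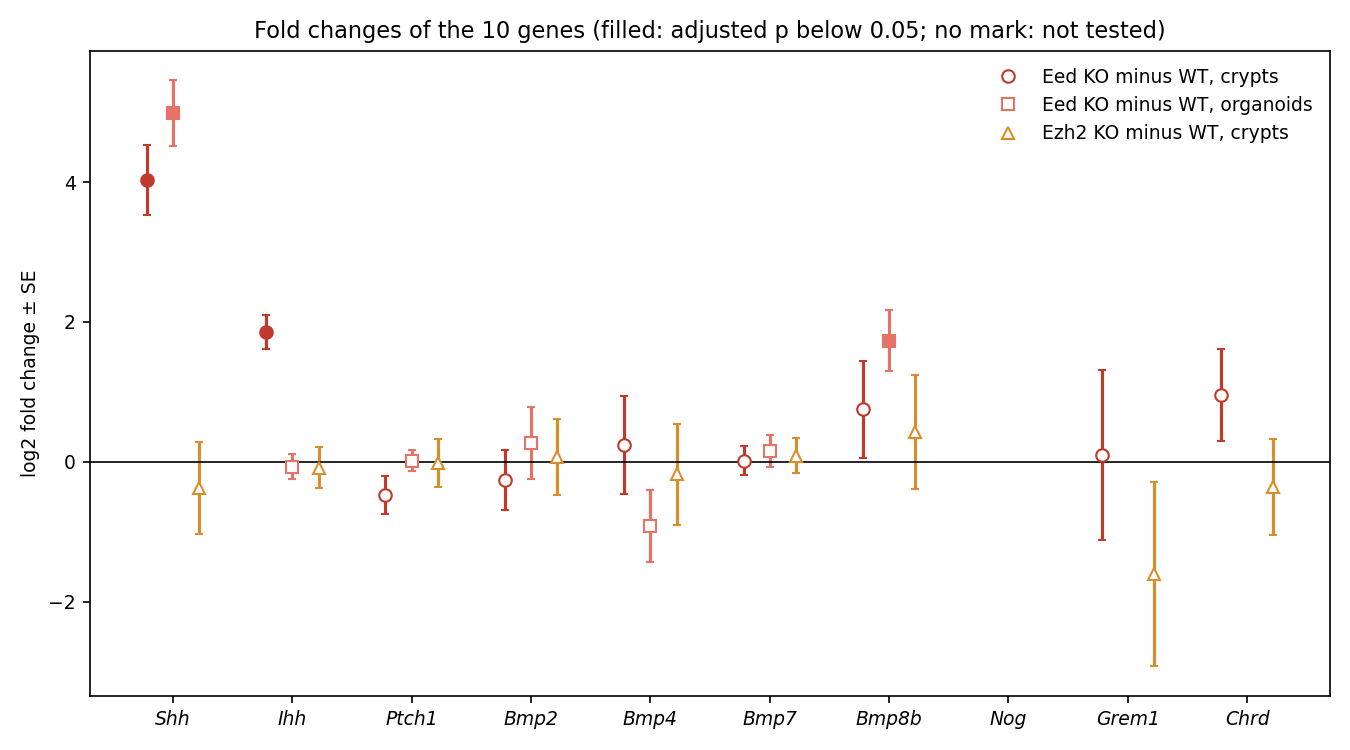
Log2 fold change with its SE (y axis) of each gene for Eed KO minus WT in crypts (circles), Eed KO minus WT in organoids (squares) and Ezh2 KO minus WT in crypts (triangles); filled symbols passed the test. Shh is filled in crypts (4.03) and organoids (4.99), Ihh in crypts only (1.85) and Bmp8b in organoids only (1.73).

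Other genes of the Hedgehog pathway were read from lists by role. Over all genes tested, 13.4% were called higher and 10.6% lower in Eed KO than in WT crypts. In organoids these shares were 13.5% and 4.63%. Of 8 genes of ligand lipidation and release, 4 were tested in crypts and 1 rose, Scube1, which encodes a secreted protein of the family that aids ligand release. Its level was 1.94 to 3.05 CPM in Eed KO crypts, against 0.445 to 0.857 CPM in WT crypts (log2 fold change 2.00 ± 0.44, adjusted p = 0.0111; 1.97 and 0.0557 without WT 385_2, and 1.95 and 0.158 in run 440 alone). None of the 5 tested of 7 receptors and co-receptors was called in crypts. Of 11 transducers and GLI factors, 8 were tested and 1 rose, Evc2, a ciliary partner of Smoothened, with 8.28 to 12.2 CPM in Eed KO crypts, against 0.534 to 2.33 CPM in WT crypts (3.31 ± 0.59, adjusted p = 0.00449; 1.96 and 0.123 in run 440 alone). In Eed KO organoids 1 of 4 tested co-receptors rose, Cdon, by 1.01 ± 0.20 (adjusted p = 0.0135), and 1 of 5 tested transducers, the ciliary receptor gene Gpr161, by 2.87 ± 0.74 (adjusted p = 0.0361). The call of Cdon was lost without Eed KO organoid 385_2 (adjusted p = 0.0566) or WT organoid 385_1 (0.0722), and that of Gpr161 without Eed KO organoid 385_1 (0.219), WT organoid 385_1 (0.181) or WT organoid 385_2 (0.0511).

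Among 6 Hedgehog targets known from gut mesenchyme, 2 of the 4 tested rose in Eed KO crypts, where 13.4% of all genes were called higher. Nkx2-3, a homeobox gene of intestinal mesenchyme, had 18.2, 16.3 and 22.5 CPM in Eed KO crypts, against 0.178, 0.550 and 2.57 CPM in WT crypts (log2 fold change 4.43 ± 0.62, adjusted p = 0.00146). Foxf2, a forkhead gene of the same tissue, had 1.77 to 3.46 CPM in Eed KO crypts, against 0 to 0.306 CPM in WT crypts (4.25 ± 0.61, adjusted p = 0.00161). The transcription factor gene Gli1, the most direct readout, had 0.780 to 1.44 CPM in Eed KO crypts, against 0.178 to 1.29 CPM in WT crypts and did not pass (0.87 ± 0.61, adjusted p = 0.354). In organoids, where all 6 of these genes were at 0 in WT, Nkx2-3 had 4.38 and 4.99 CPM in Eed KO. That is at least 39.0-fold higher, with WT set at a floor of 3 reads over the group (117 reads against 0, adjusted p = 0.00125). Foxf2, too low to be tested there, had 16 reads against 0, and Gli1 had 0 and 0.161 CPM in Eed KO organoids. The summed level of the 6 was 21.9 to 29.6 CPM in Eed KO crypts, 1.71 to 4.60 CPM in Ezh2 KO crypts and 0.534 to 6.61 CPM in WT crypts. Most of the sum in Eed KO crypts was Nkx2-3 (16.3 to 22.5 CPM), so it describes that gene more than the list. The summed mesenchyme markers given above overlapped between these crypt groups. Of 16 tested, none was called between Eed KO and WT crypts, and 2 were called higher in Eed KO than in Ezh2 KO crypts. In organoids they summed to at most 14.8 CPM, and 1 of 3 tested was called higher in Eed KO. The part of mesenchymal cells in these values was not tested.

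Bmp2, a ligand of differentiated villus epithelium and mesenchyme, had 3.82, 5.15 and 10.4 CPM in Eed KO crypts, 15.9, 6.02 and 8.32 CPM in Ezh2 KO crypts and 8.45, 6.60 and 6.74 CPM in WT crypts. In run 385 both Eed KO libraries were below both WT libraries, and in run 440 the Eed KO library was above the WT one. The log2 fold change of -0.26 ± 0.43 between Eed KO and WT did not pass the test (adjusted p = 0.704). Within run 385 it was -0.78 ± 0.32 and within run 440 0.76 ± 0.66. In organoids Bmp2 had 11.6 and 16.9 CPM as Eed KO and 6.24 and 17.5 CPM as WT, with overlap (0.27 ± 0.52, adjusted p = 0.788). Without WT organoid 385_2 the difference was 1.2 (adjusted p = 0.0385).

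Bmp4, a ligand made mainly by the mesenchyme, was low throughout. It had 1.79, 1.44 and 1.23 CPM in Eed KO crypts, 2.12, 0.761 and 2.84 CPM in Ezh2 KO crypts and 0.445, 0.916 and 3.31 CPM in WT crypts 385_1, 385_2 and 440_1. The WT libraries alone spanned the whole range of the Eed KO libraries (log2 fold change 0.23 ± 0.70, adjusted p = 0.846; 1.21 ± 0.53 in run 385 alone and -1.29 ± 0.87 in run 440 alone). In organoids it had 1.2 and 0.483 CPM as Eed KO (15 and 6 reads), against 1.80 and 1.37 CPM as WT (24 and 16 reads). The groups did not overlap, and the difference of -0.92 ± 0.52 did not pass the test (adjusted p = 0.292). Mesenchyme markers summed to 79 and 135 reads over 17 genes in the same WT organoids, and their part in the Bmp4 reads was not tested. Its exons share 89 bases with Gm15217 on the opposite strand.

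Bmp7, a ligand made by the epithelium, was at similar levels in the crypt groups. It had 45.4, 27.5 and 32.5 CPM in Eed KO crypts, 31.3, 38.9 and 40.0 CPM in Ezh2 KO crypts and 35.9, 31.9 and 36.9 CPM in WT crypts (Eed KO against WT 0.01 ± 0.21, adjusted p = 0.971). Organoids had 24.1 and 26.9 CPM as Eed KO and 18.1 and 28.0 CPM as WT (0.15 ± 0.23, adjusted p = 0.727). WT organoids were below all WT crypts, by 0.61 on the log2 scale, which did not pass the test (adjusted p = 0.102).

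Bmp8b, a ligand better known from germ cells and brown fat, rose in Eed KO organoids. It had 10.8 and 4.75 CPM in Eed KO organoids (136 and 59 reads), against 2.18 and 2.48 CPM in WT organoids (29 reads each). The groups did not overlap, and Eed KO library 385_1 was well above 385_2 (log2 fold change 1.73 ± 0.43, adjusted p = 0.0334). The call was lost without Eed KO organoid 385_1 (1.03, adjusted p = 0.151), WT organoid 385_1 (1.63, 0.152) or WT organoid 385_2 (1.84, 0.0786). In crypts it had 2.03, 0.338 and 2.52 CPM as Eed KO, 2.75, 0.824 and 1.95 CPM as Ezh2 KO and 1.16, 0.458 and 1.22 CPM as WT. All 3 groups overlapped (Eed KO against WT 0.75 ± 0.69, adjusted p = 0.482), and the difference between the organoid and the crypt effect did not pass either (0.99 ± 0.97, adjusted p = 0.706). Bmp8b has a near-identical neighbour, Bmp8a, between which counting can split or drop reads, so both are uncertain. Its exons also share 133 bases with Ppie and 339 with Gm17244 on the opposite strand. Ppie itself did not pass the test in organoids (0.01 ± 0.14, adjusted p = 0.962).

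Of 9 other BMP ligands in the tables, 3 were tested in crypts, and 1 rose and 1 fell in Eed KO. Of all genes, 13.4% were called higher and 10.6% lower there. Bmp3, an atypical member that opposes BMP signalling, fell to 3.67, 4.65 and 11.6 CPM in Eed KO crypts, against 24.7, 33.4 and 35.1 CPM in WT crypts (log2 fold change -2.37 ± 0.29, adjusted p = 0.000817). In organoids it had 30.7 and 31.6 CPM as Eed KO and 51.6 and 36.2 CPM as WT, which did not pass (-0.50 ± 0.18, adjusted p = 0.117). Bmp8a had 2.20 to 3.82 CPM in Eed KO crypts, against 0.458 to 1.47 CPM in WT crypts (1.59 ± 0.42, adjusted p = 0.0239). In the same crypts, 5 markers of crypt base stem cells summed to 705 to 1174 CPM in Eed KO, against 4337 to 4522 CPM in WT. Markers of Paneth cells (6 genes) summed to 20521 to 28489 CPM in Eed KO crypts, against 79627 to 113542 CPM in WT crypts, and those of enteroendocrine cells (7 genes) to 206 to 323 CPM, against 703 to 822 CPM. None of these ranges overlapped, and the part of these cells in the crypt differences of Bmp3 and of the BMP genes below was not tested. The call of Bmp8a was lost with the library number as a block (1.63, adjusted p = 0.0764) and without Eed KO 385_1 (0.0804) or WT 385_2 (0.0955).

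The antagonist Chrd, which encodes chordin, a protein that binds BMP2, BMP4 and BMP7 and keeps them from their receptors, differed between libraries of 1 group. It had 3.82, 1.94 and 1.70 CPM in Eed KO crypts 385_1, 385_2 and 440_1, 1.69, 0.888 and 1.83 CPM in Ezh2 KO crypts and 0.534, 0.916 and 3.0 CPM in WT crypts 385_1, 385_2 and 440_1. WT 440_1 lay among the Eed KO libraries, and the difference of 0.95 ± 0.66 did not pass the test (adjusted p = 0.340). It was 1.96 ± 0.55 in run 385 alone (adjusted p = 0.0310) and -0.69 ± 0.66 in run 440 alone. Without WT 440_1 it was 1.99 (adjusted p = 0.0268), and without Eed KO 440_1 it was 1.92 (adjusted p = 0.0290). Against Ezh2 KO crypts the difference was 1.32 ± 0.80 (adjusted p = 0.279), and 2.90 without Eed KO 440_1 (adjusted p = 0.0344). WT 440_1 was also the library highest in mesenchyme markers (889.5 CPM, against 73.6 and 214 CPM in the other WT crypts), and the part of these cells in the result was not tested. Organoids held 4 and 3 reads of Chrd as Eed KO, against 1 and 0 reads as WT, a ratio of 7.0 with a 95% counting interval of 0.899 to 315. WT organoids were below WT crypts (1 against 65 reads, ratio 0.0237, interval 0.000591 to 0.137, adjusted p = 0.0176). That call was lost without WT organoid 385_1 (adjusted p = 0.0654) or 385_2 (0.103). Exons of Chrd share 239 bases with Thpo on the opposite strand.

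Grem1, which encodes gremlin 1, an antagonist made by muscle and fibroblasts below the crypt, had 9, 12 and 2 reads in Eed KO crypts, 1, 1 and 8 reads in Ezh2 KO crypts and 0, 5 and 20 reads in WT crypts 385_1, 385_2 and 440_1. The order of the WT libraries followed that of the mesenchyme markers, as did that of the Eed KO libraries. In Ezh2 KO crypts it did not, with 480 CPM of markers and 1 read in 440_1, against 469 CPM and 8 reads in 440_3. The part of mesenchymal cells in the Grem1 reads was not tested. The Eed KO and WT groups overlapped (log2 fold change 0.10 ± 1.22, adjusted p = 0.963), and in run 440 alone the difference was -3.18 ± 1.44. No read was found in any of the 4 organoid libraries. With a floor of 3 reads over the group, this is at least 4.59-fold lower in Eed KO organoids than in Eed KO crypts (23 reads) and at least 5.41-fold lower in WT organoids than in WT crypts (25 reads, 20 of them in 440_1). The fit of WT organoids against WT crypts did not pass the test for Grem1 (adjusted p = 0.163).

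Nog, which encodes noggin, was at the edge of detection. It had 2, 3 and 2 reads in Eed KO crypts, 1, 0 and 1 in Ezh2 KO crypts and 0, 0 and 1 in WT crypts, and 2 and 0 reads in Eed KO organoids, against 0 and 0 in WT organoids. Each Eed KO crypt library held at least 2 reads and each other crypt library at most 1. The ratio of Eed KO to WT crypts was 6.46 with a 95% counting interval of 0.830 to 291, so a difference was not detectable at this depth.

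**Figure D3:**
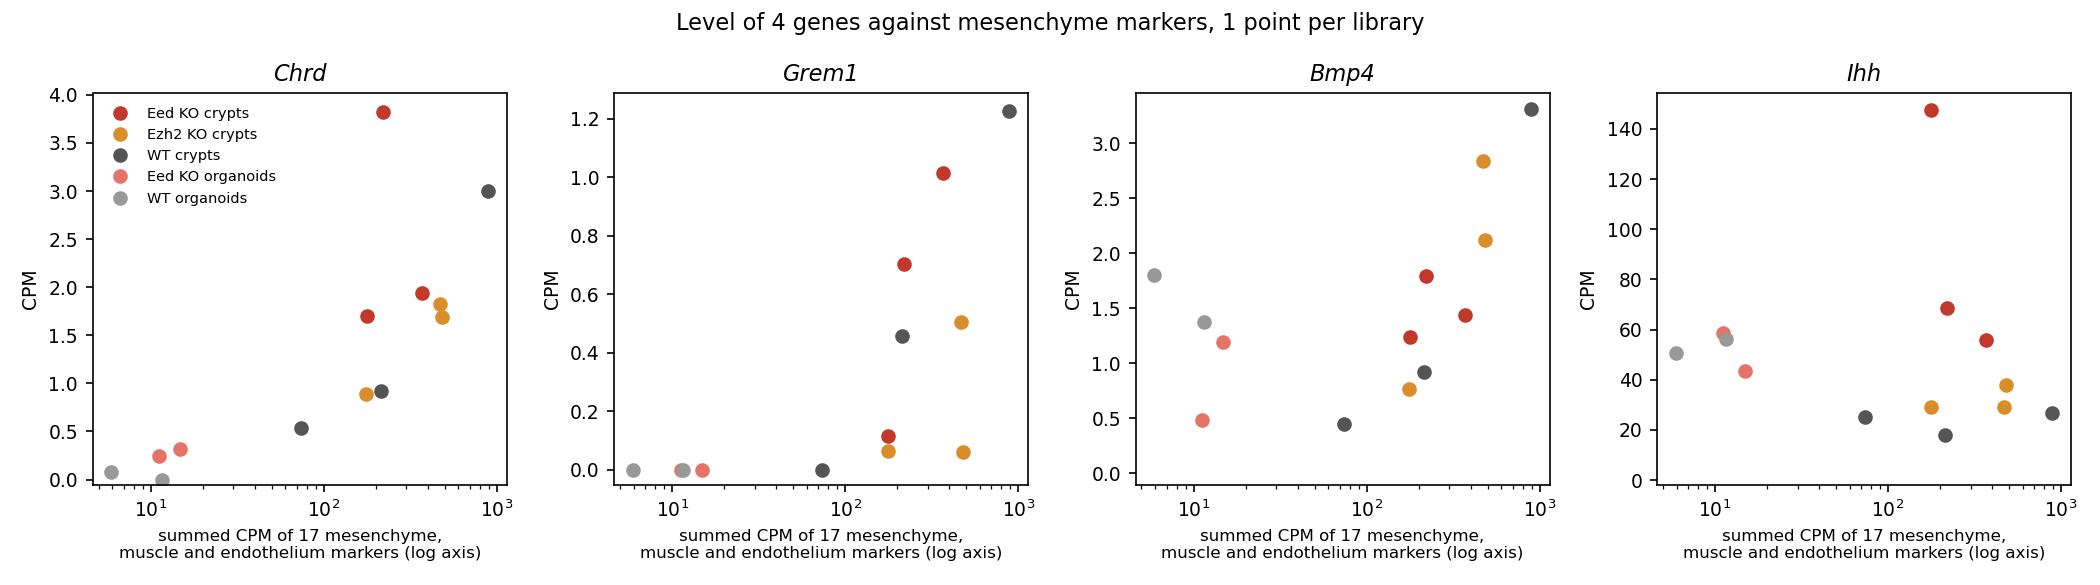
CPM of Chrd, Grem1, Bmp4 and Ihh (y axes) against the summed CPM of 17 mesenchyme, muscle and endothelium markers (x axes, log scale), with 1 point per library coloured by group. WT crypt 440_1, at 889.5 CPM of markers, is the highest library in Grem1 and Bmp4, and organoids, at 5.94 to 14.8 CPM, are at 0 in Grem1 but not in Bmp4 or Ihh.

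Of 13 other BMP antagonists, 8 were tested in crypts and 3 in organoids, and none was called between Eed KO and WT in either. Of 10 BMP receptors and co-receptors, 8 were tested in both. Rgma, a co-receptor of the repulsive guidance family, rose in both, with 5.24 to 15.1 CPM in Eed KO crypts, against 1.56 to 2.76 CPM in WT crypts (2.5 ± 0.48, adjusted p = 0.00625; 2.28 and 0.0751 in run 440 alone), and 7.73 and 5.15 CPM in Eed KO organoids, against 0.451 and 0.257 CPM in WT organoids (4.12 ± 0.46, adjusted p = 0.00144). Its relative Rgmb fell by 0.91 in Eed KO crypts (adjusted p = 0.00678), a call lost with the library number as a block (0.0546) and in run 440 alone (0.161). Acvrl1, a receptor of endothelium, rose by 1.40 ± 0.41 in Eed KO crypts (adjusted p = 0.0363) and by 2.41 ± 0.62 in Eed KO organoids (adjusted p = 0.0366). In 7 alternatives for crypts other than leaving out 1 library, its log2 fold change fell to as low as 1.01. The call was lost in 2 of these 7, among them the block (0.0935). It was lost as well without Eed KO 385_1 (0.0733), Eed KO 385_2 (0.0954), Ezh2 KO 440_3 (0.0551), WT 385_1 (0.0719) or WT 385_2 (0.145). In organoids it was lost without any 1 of the 4 libraries (0.0577 to 0.243). The endothelial markers Kdr and Cdh5 were at 0 in organoids and at 0.312 to 1.94 and 0.468 to 1.27 CPM in Eed KO crypts.

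All 9 SMADs and their regulators were tested, and 3 fell in Eed KO crypts, where 10.6% of all genes were called lower. Smad4, the shared SMAD, had 76.7, 60.9 and 91.9 CPM in Eed KO crypts, against 154, 136 and 127 CPM in WT crypts (log2 fold change -0.86 ± 0.17, adjusted p = 0.00637; -0.34 and 0.345 in run 440 alone). The SMAD ubiquitin ligase Smurf2 fell by 0.56 (adjusted p = 0.0167) and the decoy receptor Bambi by 0.91 (adjusted p = 0.0146). Under the block all 3 lost their call (Smad4 0.0611, Smurf2 0.0970 and Bambi 0.0750). Smurf2 lost it also when WT 440_1 (0.0582), WT 385_1 (0.0660) or Eed KO 385_1 (0.0539) was left out, and Bambi when either Eed KO library of run 385 (0.108 for 385_1 and 0.0547 for 385_2) or either WT library of that run (0.0632 for 385_1 and 0.0614 for 385_2) was left out. In run 440 alone Bambi differed by -0.24 (adjusted p = 0.690) and Smurf2 by -0.61 (adjusted p = 0.171), and in run 385 alone Smurf2 differed by -0.51 (adjusted p = 0.0574). In organoids Bambi rose, with 12.9 and 8.53 CPM in Eed KO, against 3.61 and 4.11 CPM in WT (1.47 ± 0.29, adjusted p = 0.0128), a call lost without Eed KO organoid 385_1 (0.0553) or WT organoid 385_1 (0.0573).

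Among 11 BMP target genes, all tested, 5 rose and 1 (Bambi, also a regulator) fell in Eed KO crypts, where 13.4% of all genes were called higher and 10.6% lower. In Eed KO organoids 4 rose, where 13.5% of all genes were called higher and 4.63% lower. Id1, an inhibitor of differentiation factors and the classic BMP readout, had 60.5, 82.6 and 67.9 CPM in Eed KO crypts, against 33.9, 27.1 and 33.1 CPM in WT crypts (log2 fold change 1.17 ± 0.16, adjusted p = 0.00145). Id2 rose by 1.69 ± 0.32 (adjusted p = 0.00590; 1.06 and 0.201 in run 440 alone) and Id3 by 0.85 ± 0.14 (adjusted p = 0.00322; 0.91 and 0.0735 in run 440 alone). The homeobox gene Msx1 had 10.1, 8.62 and 10.6 CPM in Eed KO crypts, against 0.0889, 0 and 0.0612 CPM in WT crypts (413 against 2 reads, a ratio of 191 with a 95% counting interval of 52.4 to 1579, adjusted p = 0.00125). Msx2 was at 0 in all WT crypts and had 89 reads in Eed KO crypts, at least 27.4-fold higher (adjusted p = 0.00382). In organoids Msx1 rose by 3.81 ± 0.37 (adjusted p = 0.000819), Id4 by 2.12 ± 0.42 (adjusted p = 0.0128) and Msx2 at least 10.3-fold (31 against 0 reads, adjusted p = 0.00930). There Id1 had 12.4 and 14.7 CPM in Eed KO, against 7.44 and 8.74 CPM in WT, which did not pass (0.74 ± 0.22, adjusted p = 0.0599). The summed level of the 11 targets was 248 to 263 CPM in Eed KO crypts, 169 to 216 CPM in Ezh2 KO crypts, 149 to 166 CPM in WT crypts, 101 to 108 CPM in Eed KO organoids and 54.9 to 69.2 CPM in WT organoids. Immune markers moved in the same direction in crypts, with 157, 129 and 61.3 CPM over 9 genes in Eed KO crypts, against 52.6 to 58.9 CPM in WT crypts, and summed to at most 1.13 CPM in organoids. Stem, Paneth and enteroendocrine markers were lower in the same Eed KO crypts, as given beside Bmp3. The part of these cells in the crypt values was not tested.

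**Figure D4:**
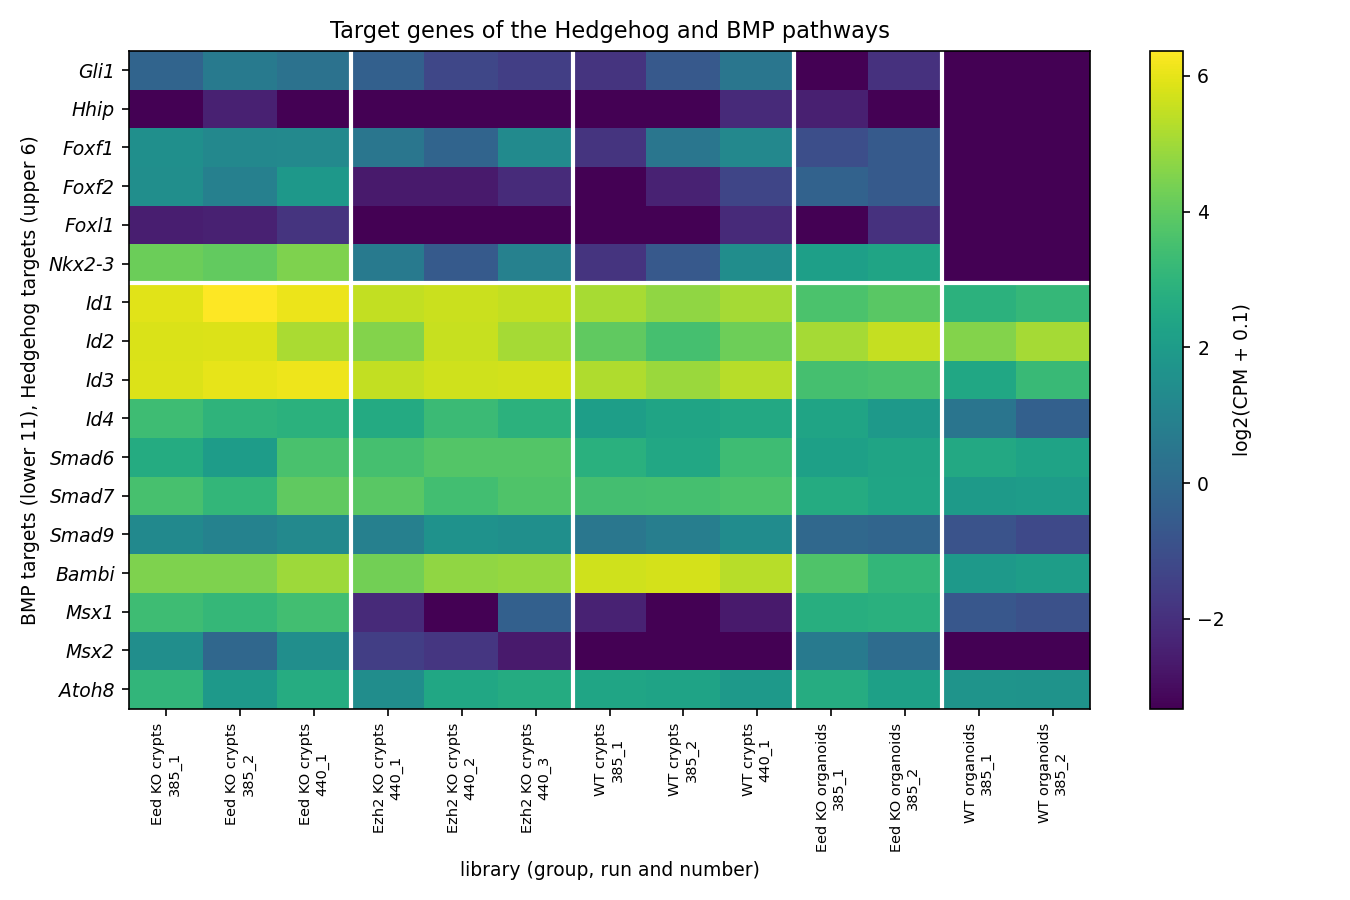
Log2(CPM + 0.1) of 6 Hedgehog targets known from gut mesenchyme (upper rows) and 11 BMP targets (lower rows) in each library (columns, by group). Nkx2-3, Foxf2, Msx1 and Msx2 are brighter in Eed KO than in WT in crypts and in organoids, and the 6 Hedgehog targets are at 0 in WT organoids.

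The Eed effect in organoids minus that in crypts was called for 2 genes of these lists. For Bmp3 it was 1.87 ± 0.41 (adjusted p = 0.0301) and for Bambi 2.38 ± 0.36 (adjusted p = 0.00592). With the library number as a block both calls were lost (adjusted p = 0.141 and 0.0745), and that of Bmp3 was lost without 1 library in 8 of 13 cases (0.0597 to 0.141).

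In Ezh2 KO crypts none of the 9 members tested was called against WT crypts by edgeR, none had an unadjusted p below 0.05, and none was called by DESeq2. The background there was 0.0208% of all genes called (3 of 14406, with 1179 at an unadjusted p below 0.05 and 68 called by DESeq2). Shh differed by -0.38 ± 0.66 (adjusted p = 0.904). Ihh was higher in each Ezh2 KO library (29.0 to 37.8 CPM) than in each WT crypt (18 to 26.6 CPM). With run as a term its difference was -0.09 ± 0.30 (adjusted p = 0.951), and in run 440 alone, against WT 440_1, it was 0.31. No gene of the other Hedgehog and BMP lists was called between Ezh2 KO and WT crypts. WT 440_1 was the only WT crypt in the run of the Ezh2 KO crypts. With it left out, 513 genes and 0 members were called.

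WT organoids were also set against WT crypts, to tell genes read in epithelium alone from those read with stroma. Strain, induction time and culture differ between them as well, and so does the sex of the libraries within run 385. Of 9 members tested, Ihh was called higher and Chrd lower, where 28.1% of all genes were called, 9.17% higher and 18.9% lower. Ptch1 (-0.03, adjusted p = 0.965), Bmp2 (0.87 ± 0.52, adjusted p = 0.247) and Bmp4 (0.59 ± 0.79, adjusted p = 0.630) did not pass. Bmp8b was above all WT crypts (1.62 ± 0.75, adjusted p = 0.132; 1.53 and 0.0305 in run 385 alone). In the pathway lists none was called higher in WT organoids. Of the 6 mesenchymal Hedgehog targets, 4 were tested and 3 were lower, with Gli1 at least 6.27-fold (0 against 29 reads), Foxf1 at least 11.3-fold and Nkx2-3 at least 10.8-fold lower. Each of these calls was lost without either WT organoid (adjusted p = 0.0717 to 0.143) or without WT crypt 385_2 (0.0545 to 0.0879), and that of Gli1 also without WT crypt 440_1 (0.0533). Of the co-receptors of Hedgehog, Boc (-2.74 ± 0.42, adjusted p = 0.000744), Cdon (-1.27 ± 0.39, adjusted p = 0.0339) and Lrp2 (1 against 267 reads, ratio 0.00577, 95% counting interval 0.000146 to 0.0324, adjusted p = 0.00479) were lower. The call of Cdon was lost without WT organoid 385_1 (adjusted p = 0.185), WT organoid 385_2 (0.0995), WT crypt 385_2 (0.123), Eed KO crypt 385_1 (0.0533), Eed KO crypt 385_2 (0.0538) or Ezh2 KO crypt 440_3 (0.0539). That of Lrp2 was lost without WT organoid 385_1 (0.0566) and in run 385 alone (0.0824). Of 11 BMP targets 6 were lower, among them Bambi (-3.61 ± 0.29, adjusted p = 1.7e-05), Id3 (-2.19 ± 0.23), Id1 (-1.95 ± 0.20) and Id4 (-2.31 ± 0.40).

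Across the 13 libraries, the genes most like Shh by Pearson correlation of log2 CPM were Ttll6 and Hoxc13 (r = 0.98 each) and Pou3f3 (r = 0.98). Pou3f3, a POU homeobox gene, had 3.50 ± 0.91 CPM in Eed KO crypts and 4.16 ± 0.54 CPM in Eed KO organoids and was at 0 in the other groups. Ihh was most like Ltb4r2 (0.95), Abi3 (0.94) and Pold4 (0.94), Bmp8b most like Arnt2 (0.88), Clcn5 (0.87) and Lamc1 (0.87), and Chrd most like Pdia5 (0.98), Lbp (0.97) and Pltp (0.97). Lbp had 25.8 ± 6.8 CPM in Eed KO crypts, 14 ± 6.0 CPM in Ezh2 KO crypts, 10.9 ± 12.8 CPM in WT crypts and 1.24 ± 0.61 CPM in Eed KO organoids, and was at 0 in WT organoids. These points share groups, runs and depth, so the coefficients describe these libraries.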

How the data were processed

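The deposited values are unnormalized gene-level counts, with 1 table per run, with Ensembl identifiers and positions per the file headers (GRCm38). Per the labels' protocols, villi were scraped off, crypts were released with EDTA and polyadenylated RNA was sequenced from strand-specific libraries. The submitters' processing notes list HTSeq, Bowtie 0.12.9, TopHat2 2.0.12 and DESeq2 without saying what each did. From these counts, CPM used TMM-adjusted library sizes over the 13 libraries. Tests used edgeR 4.0.16 in R 4.3.3 (quasi-likelihood F test, robust, group filter with minimum count 10 and total 15, Benjamini-Hochberg threshold 0.05), with group and run as terms in crypts (14406 genes) and over all 13 libraries (14761), and group in organoids (12958). SE came from the F statistic. DESeq2 1.42.0 was an alternative. Exon lengths came from GENCODE M21. Same-numbered Eed KO and WT crypts deviated together from their group means (correlations 0.17, 0.36 and 0.33). These deviations include the difference between the runs, so they cannot tell a pairing from run. Blocked values are given where they change a call. In a fit of those 6 libraries (13802 genes), 1589 genes were called with the block and 2464 without it. With the Ezh2 KO libraries in the fit and no block, 3463 were called. Counting intervals are exact (95%); they and floors cover counting error only. Members and lists were chosen with earlier results of these data known. Named were all 10 members, called genes of each pathway list (up to 5), a few others of those lists after their values were seen, and the 3 genes most like each called member. Scripts were tested on simulated data.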

Additional observations from a re-analysis of the deposited data

Results flagged for a closer look

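Among the members and the pathway lists, 3 genes had an Eed effect in organoids that differed from the effect in crypts by the interaction test over all 13 libraries, which called 608 of 14761 genes. With the library number as a block, in a fit without the Ezh2 KO libraries, all 3 calls were lost (adjusted p = 0.0885 for Ihh, 0.141 for Bmp3 and 0.0745 for Bambi). That of Ihh was lost in 3 and that of Bmp3 in 8 of 13 fits that left out 1 library. For Ihh the effect in organoids minus that in crypts was -1.92 on the log2 scale (adjusted p = 0.0152), with every Eed KO crypt above every WT crypt and overlapping organoid groups. For Bmp3 it was 1.87 (adjusted p = 0.0301), with a fall to 3.67 to 11.6 CPM in Eed KO crypts, against 24.7 to 35.1 CPM in WT crypts, and 30.7 and 31.6 CPM in Eed KO organoids, against 51.6 and 36.2 CPM in WT organoids. For Bambi it was 2.38 (adjusted p = 0.00592), lower in Eed KO crypts (22.6 to 31.0 CPM, against 40.0 to 53.0 CPM in WT crypts) and higher in Eed KO organoids. Strain and the sex of the libraries differ between the organoid groups and cannot be told apart from genotype there.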

How the results depend on the processing

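Shh and Ihh kept their call between Eed KO and WT crypts, and Shh in organoids, under every alternative run, including each library left out in turn. Of these alternatives, the fit of run 440 alone had no replicate of Eed KO or WT crypts. Counts of genes called moved by over 1.5 times for Eed KO against WT crypts in run 440 alone (1274) and with a replicate block (1589, in a fit without the Ezh2 KO libraries that called 2464 with no block), and for Ezh2 KO against WT crypts by DESeq2 (68) and with no low-count filter (8). For the organoid minus crypt effect they were 1203 by DESeq2, 1354 in run 385 alone and 72 with the replicate block, under which 0 members were called. Leaving out 1 library gave 2140 to 4145 genes for Eed KO against WT crypts, 1 to 513 for Ezh2 KO against WT crypts, 1816 to 4193 for Eed KO against Ezh2 KO crypts, 1339 to 2268 in organoids, 152 to 1284 for the organoid minus crypt effect and 2084 to 4397 for WT organoids against WT crypts. Members called ranged over 2 to 3, 0 to 0, 2 to 3, 1 to 2, 0 to 1 and 1 to 2 in the same order. Some log2 fold changes of uncalled members changed sign; the cause was not tested. In run 440 alone, Eed KO against WT crypts gave Ptch1 0.24, Bmp2 0.76, Bmp4 -1.29, Bmp7 -0.054, Grem1 -3.18 and Chrd -0.69; Ezh2 KO against WT crypts gave Ihh 0.31 and Ptch1 0.35; Eed KO against Ezh2 KO crypts gave Bmp2 0.14, Bmp4 -0.54 and Grem1 -0.72. Bmp7 in Eed KO against WT crypts was -0.0014 with RLE, -0.0015 by DESeq2, -0.0066 unfiltered and -0.030 with the block. Ptch1 in WT organoids against WT crypts was 0.022 with RLE and by DESeq2. Ranges that crossed 0 when 1 library was left out were, for Eed KO against WT crypts, Bmp2 -0.82 to 0.015, Bmp4 -0.28 to 1.24, Bmp7 -0.23 to 0.17 and Grem1 -0.81 to 1.88. For Ezh2 KO against WT crypts they were Shh -0.70 to 0.059, Ihh -0.68 to 0.31, Ptch1 -0.58 to 0.35, Bmp2 -0.80 to 0.62, Bmp4 -0.75 to 1.87, Bmp7 -0.057 to 0.28, Bmp8b -0.013 to 0.74, Grem1 -3.21 to 2.67 and Chrd -0.99 to 1.77. For Eed KO against Ezh2 KO crypts they were Bmp2 -1.44 to 0.19, Bmp4 -0.62 to 1.92, Bmp7 -0.18 to 0.011, Bmp8b -0.14 to 0.75 and Grem1 -0.79 to 4.26. In organoids they were Ihh -0.31 to 0.14, Ptch1 -0.13 to 0.15, Bmp2 -0.31 to 1.2 and Bmp7 -0.15 to 0.51, for the organoid minus crypt effect Bmp2 -0.027 to 1.45 and Bmp7 -0.14 to 0.49, and for WT organoids against WT crypts Ptch1 -0.16 to 0.21 and Bmp2 -0.046 to 1.43.

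In organoids the correlation of same-numbered libraries was 0.26. With 2 libraries in each group both pairs give the same value, so it cannot establish a pairing. A replicate block called 3902 genes there, against 2352. For the comparisons with Ezh2 KO, which shares 1 library number with the other crypt groups, a replicate block over the 9 crypt libraries was added after seeing the data and leaves 2 residual degrees of freedom. It called 14 genes and 0 members for Eed KO against Ezh2 KO crypts, where Bmp7 was 0.14 and Bmp8b -0.31, and 0 genes for Ezh2 KO against WT crypts (303 at an unadjusted p below 0.05), where Ihh was 0.16 and Bmp7 -0.16. All called pathway genes lost their call there for Eed KO against Ezh2 KO crypts. Depth limits Nog, Grem1 and Chrd in organoids, where a few reads or none were found.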
